A study of Mus musculus with 9 samples.

Results

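The optic fissure of the mouse optic cup was compared with the centre of the nasal cup at E11.5, an embryonic stage at which the ventral margins of the cup lie close to each other. RNA from cells captured by laser microdissection was hybridised to Affymetrix mouse arrays, 1 array per sample. The arrays were chosen by their region label, which gave the 3 optic fissure arrays and the 3 nasal optic cup arrays, 6 of the 9 arrays of the series. The other 3 arrays are from the centre of the temporal cup. Fissure captures took in optic cup cells up to 5 cell diameters away from the fissure margin, a width that the labels state for fissure array A. Genotype and strain, the number of embryos behind an array and any pooling are not given in the sources used here. The arrays of a region are described as biological replicates and are lettered A, B and C. The labels do not say that a letter marks shared embryos, so the p-values reflect only how far these samples vary.

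The optic fissure is a transient groove along the ventral side of the optic cup and stalk, through which mesenchyme and vessels enter the eye. Its margins approach, the basement membrane between them is removed and the epithelium fuses, and failure of this closure leaves a gap known as coloboma. The ventral cup is set apart from the dorsal cup by Vax homeobox genes on the ventral side and by BMP signalling and T-box genes on the dorsal side, with retinoic acid made in both domains by different enzymes. Nasal and temporal retina carry their own transcription factors and ephrin system genes, so a fissure to nasal comparison touches both axes of the cup.

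On the 6 arrays, medians ran from 27.5 to 30.3 intensity units, and the deposited values had been scaled to a common trimmed mean. Fissure array B stood apart. The first principal component of the 9 arrays, with 43.4% of the variance, placed it at -9.40 against -38.6 and -43.0 for fissure arrays A and C, while the nasal arrays lay between 5.92 and 21.4. Its correlation with nasal array B was 0.970, against 0.971 and 0.964 with fissure arrays A and C. The poly-A control RNA added during labelling, as the mean of 12 probe sets, read 251 ± 109 in the fissure and 145 ± 50.04 in the nasal arrays (SD, n = 3 each). The 3-prime to 5-prime ratio of Gapdh, a measure of RNA integrity and labelling, was 9.34 ± 5.13 and 6.58 ± 1.98 (SD, n = 3 each). Both ranges overlapped between the regions, and both measures were higher in the fissure array than in the nasal array of the same letter for all 3 letters.

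Between the regions, 814 of 12770 tested genes differed at an adjusted p below 0.05 in limma, which is 6.37%. Of these, 563 were higher in the fissure (4.41% of tested genes) and 251 were lower (1.97%). A change of at least 2-fold was found for 296 genes that rose and 134 that fell, and a change of at least 4-fold for 46 and 18. The change is the difference of mean log2(intensity + 16), fissure minus nasal, and its median was 0.04 over all tested genes, 1.04 over the genes that rose and -1.02 over those that fell. In each of the 814 genes the 3 fissure values and the 3 nasal values did not overlap. Over all tested genes, the fissure values lay above all nasal values in 13.1% and below them in 9.45%.

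The count depended on single arrays. Without fissure array B it was 1245, of which 744 were among the 814. It was 420 without fissure array A, 460 without fissure array C and 437 without nasal array A. Among the 563 genes that rose, fissure array B was the lowest of the fissure arrays for 348. With the letter as a block, 1592 genes passed (12.5%), 1057 higher and 535 lower, and they included all 814. With the poly-A control signal as a covariate 414 genes passed, and with the Gapdh ratio 855. Centring each array on its median lowered the changes by 0.12 on the log2 scale and moved the split from 563 higher and 251 lower to 418 and 357, so 69.2% of calls were higher without centring and 53.9% with it. Beside each list below, the counts of rises and falls without fissure array B are given, and those without another array, with the poly-A covariate or with the block where a count moved by over 1.5 times. Every list count stands against the shares of all tested genes, 4.41% higher and 1.97% lower, and some counts lie near them. Lost calls of single genes are given mostly for left-out arrays, and those with the poly-A covariate are summarised at the end.

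**Figure D1:**
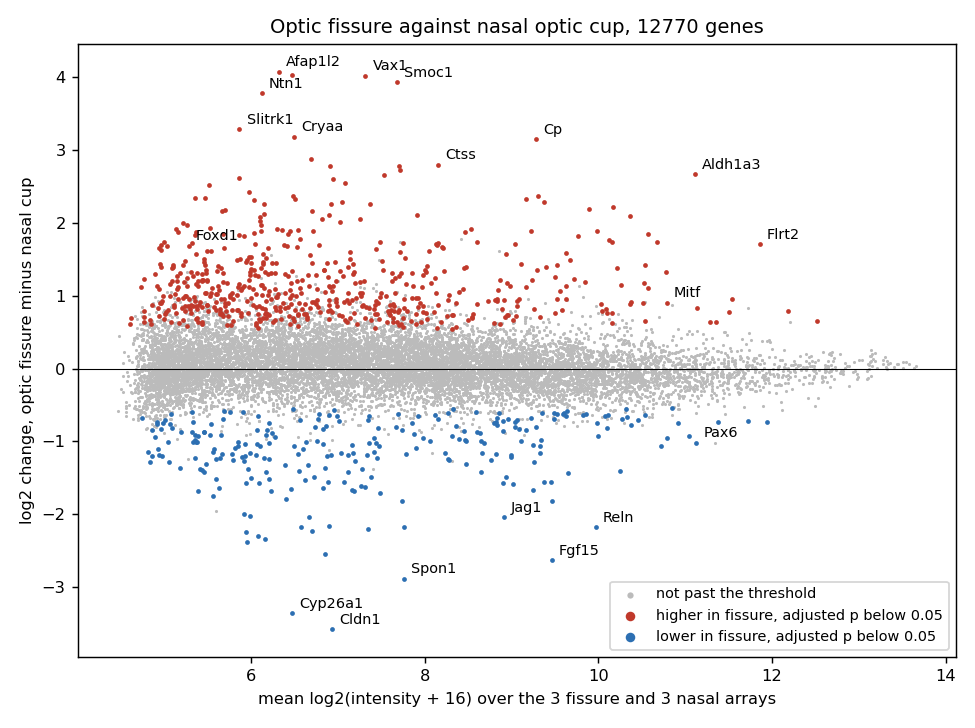
Log2 change of each of the 12770 tested genes (optic fissure minus nasal cup, vertical) against its mean log2(intensity + 16) over the 6 arrays (horizontal). Red points are the 563 genes that rose in the fissure and blue points the 251 that fell at an adjusted p below 0.05. Named genes are placed between Afap1l2 at 4.07 and Cldn1 at -3.57.

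Some transcripts were near background in 1 region and bright in the other. Genes were counted that lay above the 60th percentile on every array of a region and at or below the 40th percentile on every array of the other. There were 11 in the fissure direction and 3 in the nasal direction. All 14 passed the test, but they were picked on the values that the test uses, so this is not separate support. Some, such as Afap1l2, entered the tested set only through their fissure arrays. The 11 were Afap1l2, Adamts16, Ntn1, Slitrk1, Lyz1, Crybb1, Rgs13, Apobec1, Calcrl, Hpgds and Ms4a6d. They span the secreted guidance protein netrin-1 (Ntn1), a lens crystallin (Crybb1) and lysozyme (Lyz1), an enzyme of myeloid and epithelial cells. The 3 in the other direction were Cyp26a1, which encodes an enzyme that degrades retinoic acid, the desmosome gene Dsp and Myrip, which encodes a linker between melanosomes and myosin. Lyz1, Rgs13, Apobec1, Calcrl, Hpgds, Ms4a6d and Myrip are named because of these values. The 40th percentile of an array lay between 15.7 and 17.5 units, so a fold against a value below it is not precise.

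Afap1l2, which encodes an adaptor of the actin cytoskeleton and Src kinase signalling, showed the largest rise on this scale. It read 288, 330.2 and 316 in fissure arrays A, B and C and 0.4, 7.2 and 3.4 in nasal arrays A, B and C, an order kept for all values below. The groups were far apart and the change was 4.07 (SE 0.19, adjusted p = 1.62e-06, limma). Slitrk1, which encodes a neuronal membrane protein of synapses and neurites, read 153, 187 and 159 against 2.3, 5.2 and 0.9 (3.28, SE 0.19, adjusted p = 6.17e-06). Bmf, a pro-apoptotic member of the Bcl2 family, read 565, 444 and 580.2 against 59.2, 68.6 and 70.7 (2.73, SE 0.16, adjusted p = 6.17e-06). The nasal values of Afap1l2 were below background, so its rank depends on the pseudocount, and with 64 in place of 16 its change was 2.47, against 2.96 for Vax1. In Afap1l2, Slitrk1 and Bmf the fissure arrays lay close to each other and far above the nasal arrays.

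In Smoc1, Ntn1, Adamts16 and Cp fissure array B was the lowest of the 3, though above every nasal array. It was also the lowest fissure array in Aldh1a3, Bmf, Car8 and Mpeg1. Smoc1, a matricellular protein gene linked to eye malformation, read 1248, 360 and 1063 against 37.3, 38.3 and 33.9 (3.93, SE 0.41, adjusted p = 0.000171). Ntn1 read 335, 114 and 359.6 against 1.7, 6.1 and 1.0 (3.78, SE 0.33, adjusted p = 8.52e-05). Adamts16, a secreted metalloprotease gene, read 457, 145 and 588 against 1.5, 7.1 and 10.3, and its other tested probe set, which was dim, changed by -0.86 without passing (adjusted p = 0.0856 among 28899 probe sets). Cp, which encodes the copper-carrying ferroxidase ceruloplasmin, read 2119, 1250.5 and 2354 against 199, 158 and 229.5, a rise of 3.15. Car8, a member of the carbonic anhydrase family, rose by 2.66 and the Wnt5a receptor gene Ror2 by 2.87. The remaining genes among the 15 largest rises were Vax1, Aldh1a3, the macrophage genes Ctss and Mpeg1 and the crystallin genes Cryaa and Cryba1, which are described with their groups.

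The largest fall on this scale was in Cldn1, which encodes the tight junction protein claudin-1. It read 11.6, 28.8 and 20.3 in the fissure and 488, 355 and 389 in the nasal cup (-3.57, SE 0.21, adjusted p = 6.17e-06, limma). With a pseudocount of 1 it changed by -4.35 and Cyp26a1 by -4.40, so the order of these rests on the pseudocount. Spon1, which encodes the matrix protein F-spondin, read 79, 54.2 and 61.1 against 732, 501 and 517 (-2.88, SE 0.19, adjusted p = 1.78e-05). Reln, the gene of the secreted guidance protein reelin, read 491, 489 and 396 against 2113, 1899.7 and 2360.5 (-2.17, SE 0.17, adjusted p = 3.50e-05). In each of these genes all fissure arrays were several times below every nasal array.

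The bicarbonate cotransporter gene Slc4a5 read 42.2, 26.7 and 28.2 against 345, 236 and 221 (-2.54, SE 0.23, adjusted p = 8.52e-05), and the chloride channel gene Ano1 fell by 2.24. Cltrn, which encodes collectrin, a partner of amino acid transporters, fell by 2.23. Niban1, at 3.3, 43.8 and 8.9 against 99.7, 264 and 89, was much higher on the B array of each region than on A and C. The death-associated protein gene Dapl1 fell by 2.18, and the protocadherin gene Pcdh17, the semaphorin genes Sema3a and Sema3e, the desmosome gene Dsp and the keratin gene Krt8 complete the 15 largest falls together with Fgf15 and Cyp26a1.

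**Figure D2:**
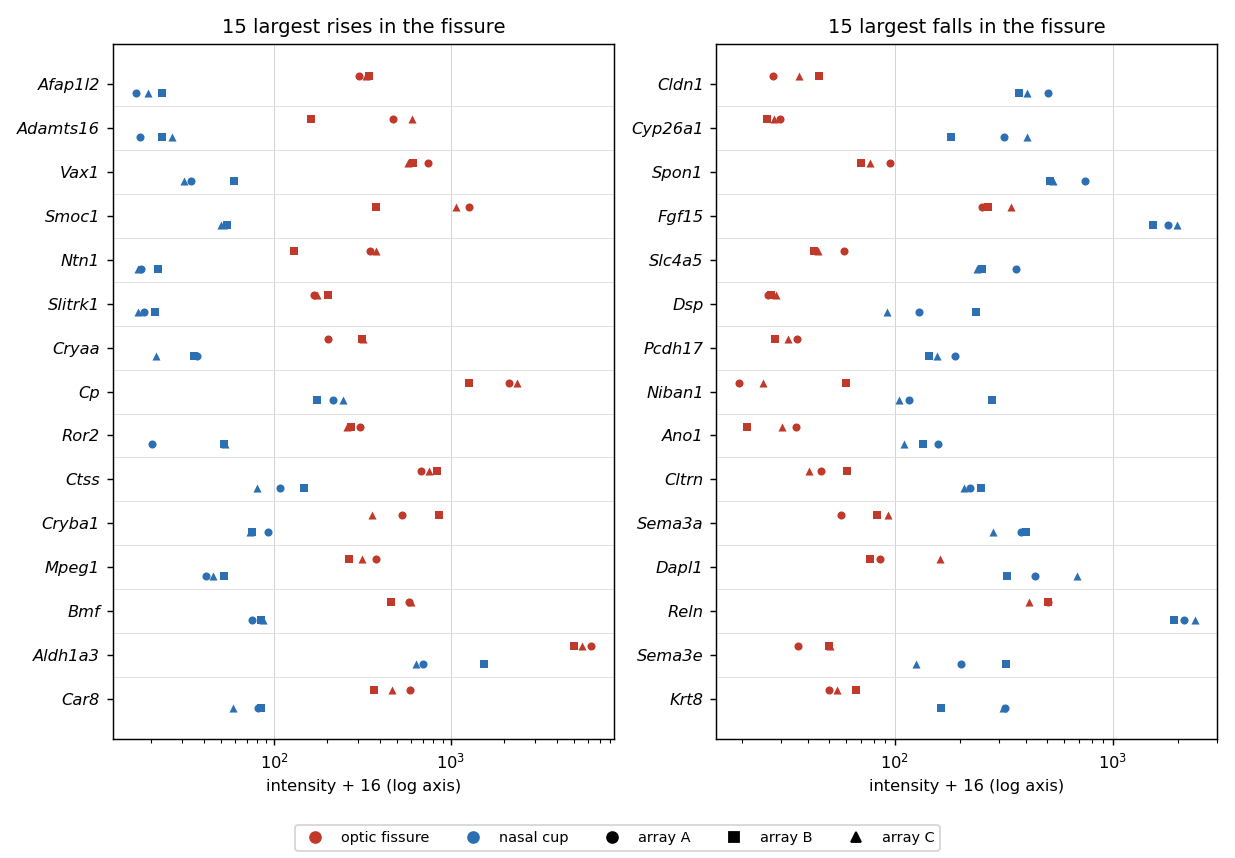
Intensity + 16 on a log axis for the 15 genes with the largest rise (left) and the 15 with the largest fall (right), optic fissure in red and nasal cup in blue. Circles, squares and triangles are arrays A, B and C. The genes were chosen among those whose 3 fissure and 3 nasal values do not overlap. The square of the fissure is the lowest fissure value in Adamts16, Smoc1, Ntn1, Cp, Aldh1a3, Bmf, Car8 and Mpeg1.

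Ventral genes were higher in the fissure and some dorsal genes were lower. In the list for the ventral cup and fissure, 11 of 14 tested genes rose and 0 fell, against 4.41% and 1.97% of all tested genes, with a median change of 1.89 against 0.04. Rises and falls numbered 11 and 0 without fissure array B. Vax1, a homeobox gene of the ventral cup and optic stalk, read 733, 595 and 559 in the fissure and 17.7, 43.6 and 14.9 in the nasal cup (4.02, SE 0.26, adjusted p = 1.38e-05, limma). Vax2, its paralog with a wider ventral domain, read 928, 524 and 778 against 284, 373 and 286 (1.17, SE 0.22, adjusted p = 0.00920). Vax2 thus had a substantial level in the nasal centre while Vax1 was low there. Bmpr1b, a BMP receptor gene, read 1499, 1467 and 1314 against 256, 338 and 209, with no overlap (2.37). Zfp503, a zinc finger gene named here after its value was seen, rose by 1.39, and its relative Zfp703 (0.11) did not pass. The list was compiled with earlier results of these samples known, so its count is not independent evidence of a direction. Nasal samples came from the cup centre, so being ventral and being close to the fissure cannot be told apart.

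Of 11 dorsal cup genes 0 rose and 4 fell (median -0.39). The counts were 0 and 4 without fissure array B, 0 and 1 without fissure array A and 0 and 2 without nasal array A or C. The T-box gene Tbx2, a dorsal determinant of the retina, read 65.9, 36.2 and 96 against 250.5, 140.3 and 279 (-1.56, SE 0.30, adjusted p = 0.00938). Tbx3 read 20.3, 13.8 and 37.2 against 60, 48.9 and 95.7 (-1.09, SE 0.24, adjusted p = 0.0208). Bambi, a decoy receptor of BMP signalling, fell by 1.64, and the netrin receptor gene Unc5b by 1.24. Bmp4, the dorsal ligand itself, read 84, 27.2 and 40.1 against 82.6, 19.9 and 69.7 and did not pass (-0.11, SE 0.41, adjusted p = 0.928), with wide scatter in both regions. Tbx5 (-0.58, adjusted p = 0.503) and Efnb2 (0.52, adjusted p = 0.229) did not pass either. The calls of Tbx3 and Bambi were lost without fissure array A (adjusted p = 0.0890 and 0.0515), nasal array A (0.0582 and 0.0563) or nasal array C (0.0745 and 0.0501), and that of Unc5b without fissure array A (0.0531).

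Genes of the nasal to temporal axis did not follow the nasal label alone. Of 9 temporal identity genes 3 rose and 1 fell in the fissure against the nasal cup (median 0.45), and of 4 nasal identity genes 0 passed in limma, with 1 at an unadjusted p below 0.05 and 0 with the letter as a block. The temporal counts were 4 and 1 without fissure array B, and the nasal counts 1 and 0 without fissure array B. Foxd1, the transcription factor gene of the temporal retina, read 28.6, 102 and 48.1 in the fissure and 4.5, 4.3 and 8.5 in the nasal cup (1.68, SE 0.29, adjusted p = 0.00460). In the temporal cup it read 849.7, 914 and 1004, far above both, a fissure minus temporal change of -3.75 (adjusted p = 3.28e-05). The fissure arrays therefore lay between the nasal and the temporal arrays, near the nasal end. This comparison and the temporal ones share arrays, so they are values side by side.

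Hmx1, which encodes a nasal retinal homeodomain protein, read 722, 378 and 829.5 in the fissure, 249, 292 and 562 in the nasal and 105, 70.5 and 72.2 in the temporal cup. Fissure and nasal values overlapped and the difference did not pass (0.79, SE 0.33, adjusted p = 0.215), while the fissure minus temporal change was 2.69 (adjusted p = 0.000594). Efna5, an ephrin ligand gene, read 949.6, 1048 and 949 in the fissure, 1212, 1512 and 1072 in the nasal and 506, 478 and 415 in the temporal cup. Its fissure values lay below all nasal values without passing (-0.35, SE 0.17, adjusted p = 0.304), and it was higher than in the temporal cup (1.05, adjusted p = 0.00316). The receptor gene Epha5 did not pass against the nasal cup (0.45, adjusted p = 0.340) and was lower than in the temporal cup (-1.62, adjusted p = 0.00163).

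The other temporal list genes that passed were Epha4 (1.31, adjusted p = 0.00682), the nuclear receptor gene Nr2f1 (0.95, adjusted p = 0.0201) and Epha6, which fell by 0.83 (adjusted p = 0.00872). Between nasal and temporal cup, Epha4 (-0.51), Nr2f1 (-0.26) and Epha6 (-0.24) did not pass (adjusted p = 0.99985 for each), so they do not separate those regions here. The call of Nr2f1 was lost without fissure array A (adjusted p = 0.0823), fissure array C (0.0616), nasal array A (0.0914) or nasal array B (0.0714). Epha3, another receptor gene, read 116, 52.6 and 120.2 against 40.7, 37.1 and 58.5 and passed only in the blocked fit (0.82, adjusted p = 0.114, and 0.0398 with the block).

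Cyp1b1 and Tenm3 are ventral list genes whose nasal and temporal levels also differed in value. Cyp1b1, a cytochrome P450 gene linked to congenital glaucoma, read 1976, 2246 and 1834 in the fissure, 425, 433 and 431 in the nasal and 60.4, 51.1 and 42.8 in the temporal cup. It rose by 2.19 against the nasal cup (SE 0.16, adjusted p = 2.69e-05) and by 4.92 against the temporal cup, and nasal exceeded temporal by 2.73 (adjusted p = 9.56e-06). Tenm3, a teneurin adhesion gene linked to microphthalmia, read 3068, 2813 and 2764, 751, 912 and 717 and 1686, 2018 and 1416 in fissure, nasal and temporal cup. Its nasal cup was the lowest of the 3 regions, though nasal minus temporal did not pass (-1.08, adjusted p = 0.0758). Its rise was 1.85 against the nasal and 0.76 against the temporal cup.

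**Figure D3:**
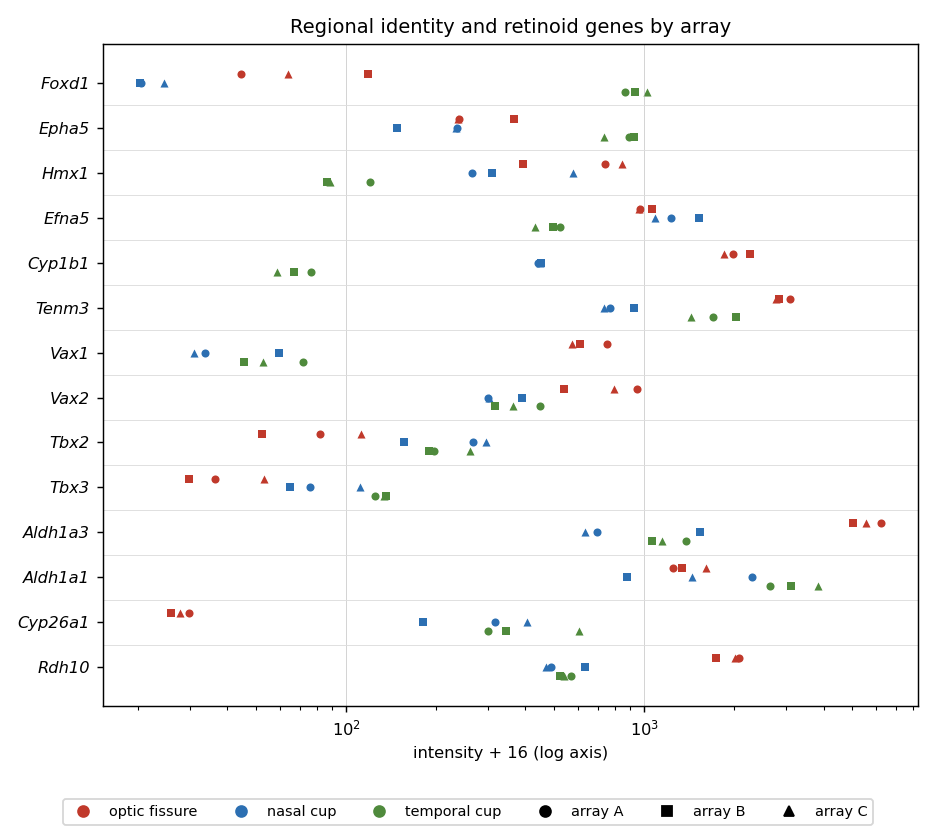
Intensity + 16 on a log axis for 14 regional identity and retinoid genes on all 9 arrays, optic fissure in red, nasal cup in blue and temporal cup in green, with circles, squares and triangles for arrays A, B and C. Foxd1 in the fissure lies between its nasal and temporal values, Hmx1 and Efna5 in the fissure lie near their nasal values, and Cyp1b1 steps down from fissure to nasal to temporal cup.

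The retinoic acid synthesis genes Rdh10 and Aldh1a3 rose, and of the genes for degrading enzymes Cyp26a1 fell and Cyp26b1 rose. Of the 18 retinoic acid genes tested, 7 rose and 2 fell, with a median of 0.41. The tally of rises and falls was 8 and 2 without fissure array B and 7 and 1 without fissure array A or C or nasal array B or with the poly-A covariate. Rdh10, which makes retinaldehyde from retinol, read 2070.5, 1733 and 2001 in the fissure and 471, 616 and 452 in the nasal cup (1.89, SE 0.16, adjusted p = 8.52e-05, limma). Aldh1a3, which turns retinaldehyde into retinoic acid in the ventral eye, read 6234, 4995 and 5520.5 against 682, 1524 and 618 (2.66, SE 0.29, adjusted p = 0.000222). Aldh1a1, the dorsal counterpart, read 1237, 1320.5 and 1599.8 against 2283, 860.3 and 1433 and did not pass (-0.04, SE 0.30, adjusted p = 0.970). Its nasal arrays spanned the whole fissure range. Aldh1a2, an enzyme gene of the same step named after its value was seen, rose by 1.88 (adjusted p = 0.00902) from near background.

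The enzymes that remove retinoids did not move together. Cyp26a1 read 13.7, 9.9 and 11.8 in the fissure and 299.9, 166 and 387 in the nasal cup (-3.36, SE 0.31, adjusted p = 9.43e-05), so it was at background on every fissure array. Cyp26b1, which encodes a related enzyme, read 50.2, 42.2 and 47.8 against 7.3, 4.8 and 16 (1.33, SE 0.21, adjusted p = 0.00307). Dhrs3, which returns retinaldehyde to retinol, read 126, 55.6 and 127 against 10.7, 18.9 and 19.7 (1.82, SE 0.27, adjusted p = 0.00217). Thus 1 of these removal genes fell and the other 2 rose. Among receptor and binding genes, Rxrg rose by 1.46 and Crabp2 fell by 0.93, both named after their values were seen, and the receptor gene Rarb, at 114, 143 and 98.8 against 85.5, 55.8 and 91.8, did not pass (0.53, SE 0.23, adjusted p = 0.249).

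Of the 16 searched genes of this list with a start window in the table, 2 held a direct repeat element for retinoic acid receptors. These were Cyp26a1 and Rarb, and both are shown for that reason. The sequences are the 250 bases before the start in RefSeq on GRCm38.p6, given 5′ to 3′ on the strand of the gene, with the element in capitals. The search took direct repeats of the receptor motif with a 5-base spacer (DR5), on both strands, in windows from 250 bases before to 50 after each start. The Cyp26a1 window shown is chr19:37697558-37697807 on the plus strand, with the match in reverse orientation beginning 32 bases before the start. The Rarb window is chr14:16575477-16575726 on the minus strand, with the match in forward orientation beginning 53 bases before the start.
Cyp26a1: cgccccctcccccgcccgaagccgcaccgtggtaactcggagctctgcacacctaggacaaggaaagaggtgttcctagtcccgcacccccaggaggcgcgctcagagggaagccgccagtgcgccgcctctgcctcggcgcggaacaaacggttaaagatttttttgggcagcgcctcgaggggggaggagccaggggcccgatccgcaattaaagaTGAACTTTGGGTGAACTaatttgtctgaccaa
Rarb: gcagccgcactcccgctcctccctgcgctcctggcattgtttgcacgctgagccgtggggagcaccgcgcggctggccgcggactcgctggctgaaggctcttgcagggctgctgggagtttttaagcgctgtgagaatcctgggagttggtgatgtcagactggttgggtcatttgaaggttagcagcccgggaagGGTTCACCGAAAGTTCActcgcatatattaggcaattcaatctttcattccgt
Of 32851 such windows in the table, 0.0974% held the element. The match is a description of these letters and was not tested for binding. Cyp26a1 fell and Rarb did not pass the test, so the genes with this element did not share a change here.

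The Wnt receptor genes Ror2 and Fzd1 and the inhibitor gene Dkk1 rose, while most of the list did not pass. Of 34 Wnt genes 6 rose and 1 fell (median 0.04). Recounted, rises and falls were 6 and 1 without fissure array B, 4 and 0 without fissure array A or C or with the poly-A covariate, 5 and 0 without nasal array A, 4 and 2 without nasal array C and 7 and 3 with the block. Ror2 read 291, 258 and 242 in the fissure and 4.3, 35.9 and 36.8 in the nasal cup (2.87, SE 0.32, adjusted p = 0.000251, limma). The frizzled receptor gene Fzd1 read 3022, 1799.6 and 2737 against 563, 482 and 509 (2.22, SE 0.22, adjusted p = 0.000137). Both receptors were clear of the nasal range on every fissure array. Dkk1, a secreted inhibitor of Wnt coreceptors, read 417, 250.5 and 284 against 47.9, 30.2 and 43.3 (2.54, SE 0.25, adjusted p = 0.000120), and Rspo3, a secreted enhancer of Wnt signalling, read 113, 105 and 109 against 12.9, 20.5 and 23.1 (1.85, SE 0.22, adjusted p = 0.000532). The ligand gene Wnt7b rose by 1.01 (adjusted p = 0.0240), and Ror1 fell by 0.70 (adjusted p = 0.0363). Axin2 (0.03) and Lef1 (-0.51), targets of canonical Wnt signalling chosen after their values were seen, did not pass. Sfrp2, a secreted Wnt binding protein of retinal progenitors, read 1908, 1302 and 2372 against 4514, 2308 and 4737 and passed only with the block (-1.02, adjusted p = 0.0588, and 0.00639 with it). The call of Wnt7b was lost without fissure array A (adjusted p = 0.118), fissure array C (0.0671) or nasal array C (0.0802). That of Ror1 was lost without fissure array A (0.167), fissure array C (0.118), nasal array A (0.149) or nasal array B (0.107).

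The BMP and TGF-beta list had 6 rises and 2 falls among 32 tested genes (median 0.00). The numbers that rose and fell were 6 and 2 without fissure array B, 4 and 1 without fissure array A or nasal array A and 5 and 1 without nasal array C. Besides Bmpr1b, the BMP modulator gene Bmper rose by 1.40, the TGF-beta coreceptor gene Tgfbr3 by 1.14 and the inhibitor of DNA binding Id4 by 1.44. With the mean of all its probe sets Tgfbr3 did not pass (adjusted p = 0.0737, limma). Id4 read 104, 156 and 88.6 against 29.8, 27.3 and 38. The ligand gene Bmp2 read 33.8, 23.5 and 16.1 against 68, 72.7 and 60.8 (-1.06, SE 0.19, adjusted p = 0.00612) and fell together with Bambi. The other rises were the ligand gene Bmp7 (1.03) and the receptor gene Tgfbr2 (1.19), and Smad1, Smad5 and Smad7 did not pass (0.02, -0.07 and -0.07). Bmp7, Tgfbr2 and these Smad genes were chosen after their values were seen.

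Of 16 FGF and ERK feedback genes 1 rose and 2 fell (median 0.03), against 4.41% and 1.97% of all tested genes. Rises and falls numbered 2 and 3 without fissure array B, 0 and 1 without fissure array A or C or nasal array A or B or with the poly-A covariate and 1 and 1 without nasal array C. Fgf15, whose product is secreted by dividing retinal cells, read 235, 251 and 327 in the fissure and 1778, 1522 and 1946 in the nasal cup (-2.63, SE 0.18, adjusted p = 1.87e-05, limma). It was the largest change in the list, and no fissure array came near the nasal range. Fgf13, an intracellular member of the family, fell by 0.82 (adjusted p = 0.0209), and the phosphatase gene Dusp4 rose by 0.92 (adjusted p = 0.0275). Fgf9, at 289, 417 and 277 against 449.6, 469 and 717, did not pass (-0.70, SE 0.22, adjusted p = 0.0866). The call of Fgf13 was lost without any of the 6 arrays in turn other than fissure array B (adjusted p = 0.0555 to 0.0947). It was also lost with the mean of all probe sets (0.223). The call of Dusp4 was lost without fissure array A (0.112), fissure array C (0.119), nasal array A (0.0760) or nasal array B (0.0988).

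The 3 Notch pathway genes that passed were lower, while the list as a whole was balanced in sign. Of 19 tested, 0 rose and 3 fell, against 4.41% and 1.97% of all tested genes, with a median of -0.06. The change was above 0 for 9 genes and below 0 for 10. Rises and falls numbered 0 and 3 without fissure array B and 0 and 1 without fissure array A. Jag1, a Notch ligand gene, read 171, 244 and 259 in the fissure and 859.9, 838 and 1233 in the nasal cup (-2.04, SE 0.27, adjusted p = 0.00101, limma). Hes5, a target and effector of Notch, read 6.9, 8.7 and 25.6 against 55.9, 49.5 and 102 (-1.52, SE 0.29, adjusted p = 0.00949). Hey1, another effector, read 66.4, 53.3 and 76.6 against 136, 135 and 106 (-0.80, SE 0.17, adjusted p = 0.0175). Hes1 (-0.16), Notch1 (0.23) and Dll1 (0.13), chosen after their values were seen, did not pass. The call of Hes5 was lost without fissure array A (adjusted p = 0.0524), and that of Hey1 without fissure array A (0.0669), nasal array A (0.0798) or nasal array B (0.0655).

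Hes5 is shown by sequence because it passed the test and held 2 copies of the letters GTGGGAA, the core that the Notch effector Rbpj (CSL) binds. The sequence is the 250 bases before the RefSeq start on GRCm38.p6 (chr4:154960673-154960922, plus strand), 5′ to 3′, with the matches in capitals.
Hes5: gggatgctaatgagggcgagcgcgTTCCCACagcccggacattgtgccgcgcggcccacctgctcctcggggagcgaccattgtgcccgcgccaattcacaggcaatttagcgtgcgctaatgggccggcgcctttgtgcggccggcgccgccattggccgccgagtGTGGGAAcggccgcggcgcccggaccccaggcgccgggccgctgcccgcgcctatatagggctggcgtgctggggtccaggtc
The matches begin 226 bases before the start in reverse orientation and 83 bases before it in forward orientation. Of the 32851 windows, 6.38% held these letters on either strand. Of the Notch list, only Hes5, Hes1, Hey1, Hey2, Nrarp and Jag1 were looked up, and Hes5, Hey2, Nrarp and Jag1 had a window. Hes5 and Hey2 each held 2 copies, and Hey2 did not pass the test (-0.38, adjusted p = 0.206). A match says only that the letters are there.

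In the optic stalk and Hedgehog list 1 of 13 genes rose, which was Vax1, and 0 fell, and the counts were 1 and 0 without fissure array B and 2 and 0 with the block. Ptch1, the Hedgehog receptor and target gene, read 1180.2, 952 and 1017 against 742, 795 and 619.8, and Gli1, another target, read 85.6, 27.1 and 52.9 against 51.7, 23 and 19.9. Ptch1 passed only with the block (0.54, adjusted p = 0.120, and 0.0391 with it), and Gli1 did not pass (0.56, adjusted p = 0.382). Of 14 Hippo pathway genes and Yap targets, 0 passed in limma. With an unadjusted p below 0.05 there was 1, and 1 fell with the block, which was Ccn2 (-0.79, adjusted p = 0.0563, and 0.0286 with it). The Hippo counts were 0 and 1 without fissure array B.

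Of 18 eye field and progenitor genes 1 rose and 5 fell (median -0.52), and with the block 2 rose and 9 fell. The counts were 1 and 5 without fissure array B and 1 and 3 without fissure array A. Pax6, the eye master regulator, read 1442, 1776 and 1476 in the fissure and 2941, 3767 and 2889 in the nasal cup (-1.02, SE 0.16, adjusted p = 0.00307, limma). Foxn4, a transcription factor gene of progenitors competent for early cell types, read 43, 67.5 and 92.8 against 241, 198 and 306 (-1.68, SE 0.24, adjusted p = 0.00178). Meis2, a cofactor of homeobox proteins, rose by 1.19, at 1329, 1793 and 1094 against 563, 674 and 554. Six6 (-0.28), Rax (-0.42) and Sox2 (-0.18), eye field genes, did not pass, and their values overlapped or lay close between regions.

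The captures expressed the eye field genes that define the tissue. The 7 tested retinal markers summed to 7546 to 7987 units in the fissure and 10206 to 12705 in the nasal cup, with 0 rising and 1 falling (0 and 1 without fissure array B, 0 and 2 without nasal array B and 1 and 2 with the block). Pax6 and Sfrp2, given above, held most of the difference between these sums. Of the 7 changes, 2 were above 0 and 5 below. In bulk captures, fewer cells of a type and less RNA per cell cannot be told apart. The lowest of these 7 genes on a fissure array was Rax at 207 units on array B, so none was near background.

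Of 23 neurogenesis genes 1 rose and 4 fell (median -0.02). The tally of rises and falls was 2 and 3 without fissure array B, 1 and 1 without fissure array A and 1 and 2 without nasal array C. The proneural gene Neurog2 read 19.1, 26.2 and 41.5 against 73.8, 77 and 179.8 (-1.42, SE 0.32, adjusted p = 0.0219), and Neurod1 read 11.9, 20.1 and 42.6 against 80.7, 47.3 and 106 (-1.22, SE 0.33, adjusted p = 0.0491). Gap43, a growth cone gene, fell by 1.11, and Sox11 by 0.73, while its relative Sox4 rose by 1.10. The most variable probe set gave no call for Sox11 (adjusted p = 0.783) or Sox4 (0.112). The calls of Neurog2 and Neurod1 were lost without fissure array A (adjusted p = 0.105 and 0.206) or nasal array C (0.0615 and 0.160), and that of Neurod1 also without fissure array B (0.0789) or nasal array A (0.152). The call of Sox11 was lost without fissure array A (0.0667). In the temporal cup Neurog2 read 207, 245 and 382 and Neurod1 185, 256 and 124, above the nasal arrays in value, although nasal minus temporal did not pass (adjusted p = 0.606 and 0.99985).

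Of 18 pigment epithelium genes tested, 3 rose and 5 fell (median -0.59), and 4 and 10 with the block. Recounted, rises and falls were 3 and 7 without fissure array B and 3 and 3 with the poly-A covariate. Tfec, a relative of Mitf, read 211, 160.2 and 198 in the fissure and 25.1, 29.9 and 19.7 in the nasal cup (2.33, SE 0.23, adjusted p = 0.000120, limma). Otx1 read 1389, 927 and 1302 against 368, 569 and 384 (1.43, SE 0.23, adjusted p = 0.00349), and Mitf, the regulator of pigment cell fate, read 2402, 2236 and 2575 against 1423, 1257 and 1158 (0.90, SE 0.16, adjusted p = 0.00529). These 3 genes encode transcription factors. The melanosome genes Oca2, at 255, 238 and 154 against 634, 520 and 491 (-1.31, SE 0.21, adjusted p = 0.00305), and Mlana, at 36.2, 25 and 18.9 against 127, 90.7 and 145 (-1.68, SE 0.27, adjusted p = 0.00349), fell, and so did the amino acid transporter gene Slc7a8 (-1.79). Otx2, another regulator of the layer, passed only with the block (-0.63, adjusted p = 0.117, and 0.0311 with it). Macrophage and leukocyte markers, a class of cells that can express Mitf family genes, summed to 3383 to 4184 units in the fissure against 660 to 955 in the nasal cup, and their part in these results was not tested.

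Of 34 basement membrane and matrix genes 10 rose and 3 fell, against 4.41% and 1.97% of all tested genes, and the median change was 0.38 against 0.04 over all tested genes. The numbers that rose and fell were 15 and 3 without fissure array B, 4 and 2 without fissure array A or C or with the poly-A covariate, 5 and 2 without nasal array A, 5 and 4 without nasal array B and 13 and 5 with the block. Lamb1, a laminin chain gene of basement membranes, read 1262, 1737 and 1128 in the fissure and 404, 441 and 475 in the nasal cup (1.59, SE 0.19, adjusted p = 0.000400, limma). Nid1, which links laminin to collagen IV, read 486, 456 and 532 against 139, 129 and 155 (1.69, SE 0.24, adjusted p = 0.00149). Of the collagen IV chains Col4a1 (0.14) and Col4a2 (0.17), chosen after their values were seen, did not pass. The fibrillar collagen gene Col5a2 rose by 1.36, at 273, 205 and 385 against 83.8, 105 and 110.2. Periocular mesenchyme markers, which include fibrillar collagens, summed to 2611 to 4090 units in the fissure and 2090 to 2638 in the nasal cup, and their part in the collagen values was not tested. Smoc1 was the largest rise of the list, and Spon1 and Reln were the largest falls.

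Of 26 proteases and inhibitors 5 rose and 0 fell (median 0.24), and 8 and 1 with the block. Rises and falls numbered 5 and 0 without fissure array B, 3 and 0 without fissure array A or nasal array A and 2 and 0 with the poly-A covariate. Besides Adamts16, the aggrecanase and versicanase gene Adamts5 read 255, 164 and 207 in the fissure and 28.3, 36.7 and 35.6 in the nasal cup (2.16, SE 0.23, adjusted p = 0.000202). Adamts15 read 99.1, 45.3 and 78 against 22.1, 20.9 and 26.5 (1.16, SE 0.22, adjusted p = 0.00920), and Adamts12 read 70.9, 66.1 and 58.6 against 28.7, 38.4 and 29.1 (0.76, SE 0.15, adjusted p = 0.0128). Plat, the tissue plasminogen activator gene, rose by 0.77 (adjusted p = 0.0153). Adamts3 was lower with the block alone (-0.62, adjusted p = 0.0532, and 0.0290 with it), and Mmp2 (0.46) and Mmp14 (0.43), also chosen after their values were seen, did not pass. The calls of Adamts12 and Plat were lost without fissure array A (adjusted p = 0.0707 and 0.0755) or nasal array A (0.0641 and 0.0761), and that of Adamts12 also without nasal array C (0.0528). With the poly-A covariate Adamts15 and Plat lost their calls (adjusted p = 0.0687 and 0.0960), and so did Adamts12. Adamts12 also lost its call with the mean of all probe sets (0.137).

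Among 36 cell adhesion and junction genes 5 rose and 9 fell (median 0.03). The counts were 4 and 7 without fissure array B, 3 and 7 without fissure array A, 2 and 7 without fissure array C or nasal array B, 1 and 7 without nasal array A or with the poly-A covariate, 3 and 8 without nasal array C and 8 and 9 with the block. The falls were led by epithelial junction and keratin genes. Dsp, which encodes desmoplakin, read 10.1, 10.9 and 12.6 in the fissure and 113, 219 and 76.5 in the nasal cup (-2.37, SE 0.28, adjusted p = 0.000422, limma). Krt8 and its partner Krt18, keratins of simple epithelia, read 33.7, 50.6 and 38.5 against 303, 146 and 299 (-2.17, SE 0.32, adjusted p = 0.00207) and 311, 249 and 273 against 887, 646 and 922 (-1.49, SE 0.21, adjusted p = 0.00158). Cldn1, Dsp and both keratins were thus low on each fissure array. Pcdh17, a delta protocadherin gene, read 19.5, 12.2 and 16.3 against 172, 127 and 141 (-2.34, SE 0.18, adjusted p = 3.21e-05). Itga8, an integrin subunit gene, rose from 36.6, 30.5 and 50.6 to 222, 160.2 and 180 (1.89, SE 0.18, adjusted p = 0.000120). The 11 tested surface ectoderm markers, which hold Dsp, Krt8 and Krt18, summed to 518 to 602 units in the fissure and 1223 to 1630 in the nasal cup, with 1 rising and 3 falling (0 and 3 without fissure array B or C or nasal array A or B or with the poly-A covariate). Cdh1, the E-cadherin gene of that list, was the member that rose (0.93, adjusted p = 0.0362), and its call was lost without fissure array B (0.0600), fissure array C (0.152), nasal array A (0.119) or nasal array B (0.132). Dsp, Krt8 and Krt18 held most of the surface ectoderm sum in the nasal cup. Of the 11 changes in that list, 5 were above 0 and 6 below. Whether ectoderm took part in either capture was not tested.

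Guidance genes moved both ways. Among 47 genes of Eph, ephrin and axon guidance families, 11 rose and 6 fell (median 0.15). The tally of rises and falls was 11 and 6 without fissure array B. Flrt2, an adhesion and guidance protein gene that binds Unc5 receptors, was bright throughout, at 6831, 6554 and 6703 against 1986, 2492 and 1732 (1.70, SE 0.18, adjusted p = 0.000222, limma). The secreted semaphorin genes Sema3a, at 40.8, 67.2 and 76.7 against 365, 385 and 266 (-2.21, SE 0.21, adjusted p = 0.000121), and Sema3e, at 20, 34 and 34.3 against 186, 309 and 109.5 (-2.17, SE 0.29, adjusted p = 0.00116), fell. Plxnc1, a plexin receptor gene, read 42.5, 78.5 and 78.7 against 265, 249.9 and 211 (-1.67, SE 0.21, adjusted p = 0.000724). The neuropilin genes Nrp1 and Nrp2, receptors of secreted semaphorins named after their values were seen, rose by 1.29 and 1.10, and the ligand genes Sema3c and Sema3d, likewise, by 1.37 and 1.20. Secreted semaphorins of the same class therefore differed in direction. Ntn1 rose, and its receptor gene Unc5b, given with the dorsal genes, read 168, 192 and 193 against 469, 422 and 484.

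Of 39 cell cycle genes tested, 2 rose and 4 fell, against 4.41% and 1.97% of all tested genes, with a median of -0.28, and with the block 3 rose and 9 fell. Recounted, rises and falls were 2 and 6 without fissure array B, 2 and 2 without fissure array A or nasal array A and 1 and 2 with the poly-A covariate. Ccne1, which encodes cyclin E1 of S phase entry, read 321, 491 and 339.6 in the fissure and 1114, 652 and 1139 in the nasal cup (-1.28, SE 0.23, adjusted p = 0.00697, limma). Cdc6, a replication licensing gene, fell by 0.85, and Rrm2, a ribonucleotide reductase subunit gene, by 0.73. The rises were Ccnd2, a cyclin D gene, at 2632, 2482 and 3255 against 912, 1108 and 1315 (1.32, SE 0.19, adjusted p = 0.00152), and Cdkn1c, whose product p57 holds cells out of the cycle, at 1470.1, 1269 and 1376 against 732, 783 and 849 (0.79, SE 0.14, adjusted p = 0.00697). The change was below 0 for 32 of the 39, on a scale where centring the arrays lowers every change by 0.12. Cdk1, a mitotic kinase gene, fell by 0.64 (adjusted p = 0.0263). It lost its call without fissure array A (0.109) or C (0.118) or nasal array A (0.104) or B (0.0883). The call of Rrm2 was lost without fissure array A (adjusted p = 0.0812) or nasal array A (0.0623).

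Of 17 apoptosis and engulfment genes 0 rose and 1 fell (median 0.19). The numbers that rose and fell were 2 and 1 without fissure array B or with the block and 0 and 0 without fissure array A or C or nasal array B or C or with the poly-A covariate. Bmf, the pro-apoptotic gene given above, is not in the list and rose by 2.73. The survival gene Bcl2 read 199, 395 and 206 against 456, 733 and 608 (-1.16, SE 0.29, adjusted p = 0.0349), and it lost its call without fissure array A (adjusted p = 0.152), fissure array C (0.139), nasal array B (0.128) or nasal array C (0.0972). Gas6 and Mertk, a ligand and a receptor of engulfment, passed only with the block (0.72 and 0.63, adjusted p = 0.0144 and 0.0298 with it, and 0.0549 and 0.0939 without). Leukocyte markers were several times higher in the same captures, and their part in these values was not tested. Of 24 hypoxia and glycolysis genes 1 rose and 3 fell (median -0.23), against 4.41% and 1.97% of all tested genes. Rises and falls numbered 1 and 3 without fissure array B, 0 and 2 without fissure array A or C or with the poly-A covariate, 1 and 1 without nasal array A, 0 and 3 without nasal array B, 0 and 1 without nasal array C and 2 and 4 with the block. The hexokinase gene Hk2 read 194, 138 and 234 against 399, 432 and 474 (-1.16, SE 0.19, adjusted p = 0.00372), and Ldha, lactate dehydrogenase A, fell by 0.73 (adjusted p = 0.0146). Ldha lost its call without fissure array A (0.0683), fissure array C (0.0609), nasal array A (0.0649) or nasal array C (0.0600). Of 14 immediate early genes 2 rose and 0 fell (median 0.22). The counts were 4 and 0 without fissure array B or with the block and 1 and 0 without fissure array A or C or nasal array B or C or with the poly-A covariate. Egr1, a gene of rapid responses to growth factors and handling, read 202, 168 and 207 against 55.6, 63.9 and 81.3 (1.34, SE 0.18, adjusted p = 0.00124).

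Of 42 tested genes in which variants are linked to coloboma or other eye malformation, 12 rose and 1 fell (median 0.24). Over all tested genes the shares were 4.41% and 1.97%, so the fall lies near its share. The tally of rises and falls was 15 and 1 without fissure array B, 11 and 2 without nasal array B and 16 and 2 with the block. The 12 include Vax1, Smoc1, Ntn1, Aldh1a3, Cyp1b1, Tenm3, Zfp503 and Vax2, which the ventral list also holds, so the 2 counts are not separate. Maf, a transcription factor gene of lens and eye morphogenesis, read 1166, 1699.7 and 1046 in the fissure and 224, 312 and 201 in the nasal cup (2.33, SE 0.24, adjusted p = 0.000162, limma). Bmp7, a ligand gene needed for eye growth and named after its value was seen, rose by 1.03. Pax6 was the member that fell, and Yap1 (-0.03), Chd7 (-0.12) and Fzd5 (0.06), chosen after their values were seen, did not pass.

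Most leukocyte markers and several lens genes were higher in the fissure captures. Of the 20 macrophage and leukocyte markers 19 rose, at a median change of 1.87, and 0 fell. Their summed level was 3383 to 4184 units in the fissure and 660 to 955 in the nasal cup, with fissure array B the lowest fissure array and still above every nasal array. Ctss, a lysosomal protease gene of macrophages, read 667, 818 and 736 against 92.2, 131 and 63.8 (2.80, SE 0.26, adjusted p = 9.43e-05, limma). Mpeg1 read 359.6, 251 and 299.7 against 25.1, 36.2 and 29.3 (2.78, SE 0.27, adjusted p = 0.000120), and Ptprc, the gene of the leukocyte antigen CD45, read 129, 87.7 and 142 against 22, 23.8 and 14.8 (1.89, SE 0.20, adjusted p = 0.000180). The complement gene C1qa read 46, 30.9 and 54.2 against 1.3, 1.3 and 4.6, so it was near 0 in the nasal cup. Spi1 (0.18), a myeloid transcription factor gene named as the member that did not pass, was the exception. Without fissure array B the count was again 19.

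Of 10 lens genes 5 rose and 1 fell (median 1.25), and their sum was 2538 to 3672 units in the fissure against 723 to 790 in the nasal cup. The lens counts were 5 and 1 without fissure array B, 5 and 0 without fissure array A or C or nasal array C and 4 and 0 without nasal array B. The crystallin genes Cryaa, at 186, 299.6 and 301 against 20.4, 19.1 and 5.3 (3.18, SE 0.54, adjusted p = 0.00464), and Cryba1, at 518, 842 and 342 against 76, 58.5 and 57.3 (2.78, SE 0.53, adjusted p = 0.00902), were higher on every fissure array. Maf held a large part of the lens sum, and it is not restricted to lens. In the temporal cup Cryaa read 107, 2.8 and 64.1, so this lens signal also varied between arrays of 1 region. Bfsp2, a lens filament gene, fell by 1.20, from values near background. Its call was lost without fissure array A (adjusted p = 0.140), fissure array C (0.118), nasal array B (0.138) or nasal array C (0.125).

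Of 23 periocular mesenchyme genes 4 rose and 2 fell (median 0.45). The counts were 9 and 3 without fissure array B, 1 and 2 without fissure array A or nasal array B, 1 and 1 without fissure array C or nasal array A, 1 and 0 with the poly-A covariate and 10 and 3 with the block. Fissure array B had a mesenchyme sum of 2611 units, below that of nasal array C at 2638. Lum, a small matrix proteoglycan gene, read 495, 226 and 467 against 117, 73.4 and 125 (1.72, SE 0.37, adjusted p = 0.0168), and Eya2, a transcriptional coactivator gene, read 76, 41.6 and 86.5 against 13.3, 6.8 and 12.1 (1.62, SE 0.22, adjusted p = 0.00131). Postn and Dcn, matrix genes of the same list, fell by 1.38 and 1.03. Lum lost its call without fissure array A (adjusted p = 0.0829), fissure array C (0.0709), nasal array A (0.0502) or nasal array B (0.0720). Dcn lost its call without fissure array C (0.0616) or nasal array A (0.0566) and with the mean of all probe sets (0.165).

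Of 15 endothelial genes 0 passed in limma, 4 had an unadjusted p below 0.05 and 1 passed with the block (3 and 0 without fissure array B). Of 8 erythroid genes 0 passed, 4 had an unadjusted p below 0.05 and 2 rose with the block (2 and 0 without fissure array B and 1 and 0 without nasal array C). The embryonic globin gene Hbb-bh1 read 4499, 3508 and 5759 against 2362, 1601 and 4293 (0.82, SE 0.33, adjusted p = 0.192, and 0.00973 with the block), with overlapping groups. Of 6 melanocyte and neural crest genes 1 rose and 1 fell, which were the endothelin receptor gene Ednrb (0.90) and Kit (-1.01), and of 3 forebrain genes 1 rose, Wnt7b. The melanocyte counts were 0 and 1 without any 1 fissure array or nasal array C and 0 and 0 without nasal array A or with the poly-A covariate, and the forebrain counts 2 and 0 without fissure array B or with the block and 0 and 0 without fissure array A or C or nasal array C or with the poly-A covariate. Kit lost its call without nasal array A (adjusted p = 0.0581), and Ednrb without fissure array A (0.116), B (0.0922) or C (0.104) or nasal array A (0.160) or C (0.160). Of 17 ribosomal protein genes 0 passed in limma, with 0 at an unadjusted p below 0.05, 0 with the block and a median of 0.07. The part of any of these cell types in the results above was not tested.

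**Figure D4:**
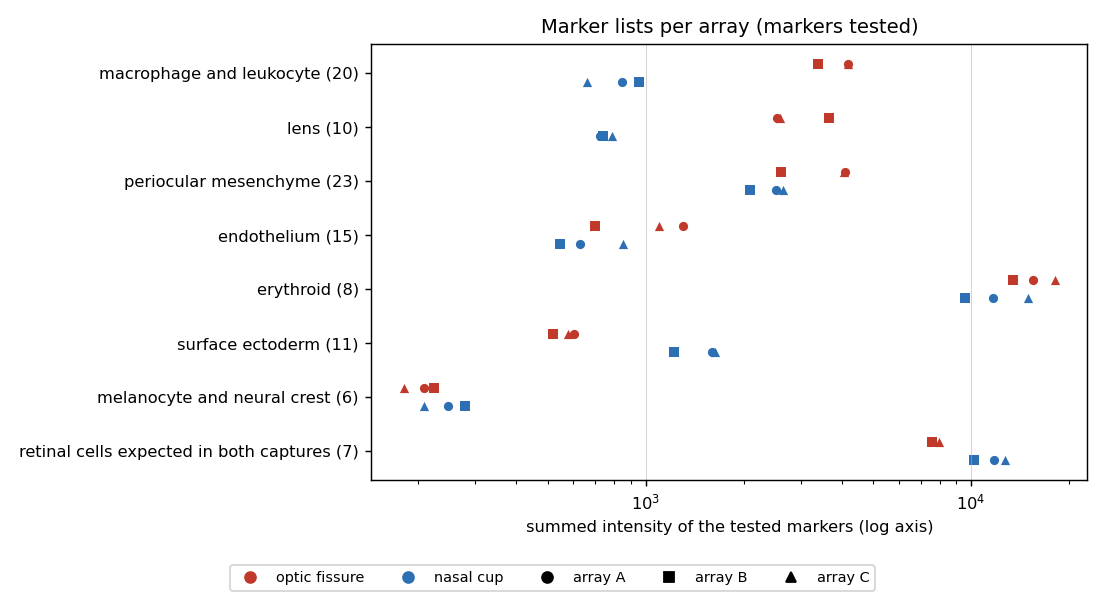
Summed intensity of the tested markers of 8 lists on each array, on a log axis, optic fissure in red and nasal cup in blue, with circles, squares and triangles for arrays A, B and C. The macrophage and leukocyte sum lies at 3383 to 4184 units in the fissure and 660 to 955 in the nasal cup. The lens sum is also higher in the fissure, and the surface ectoderm and retinal sums are lower. Bright members weigh most in a sum, here Dsp, Krt8 and Krt18 for surface ectoderm and Pax6 and Sfrp2 for retina.

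**Figure D5:**
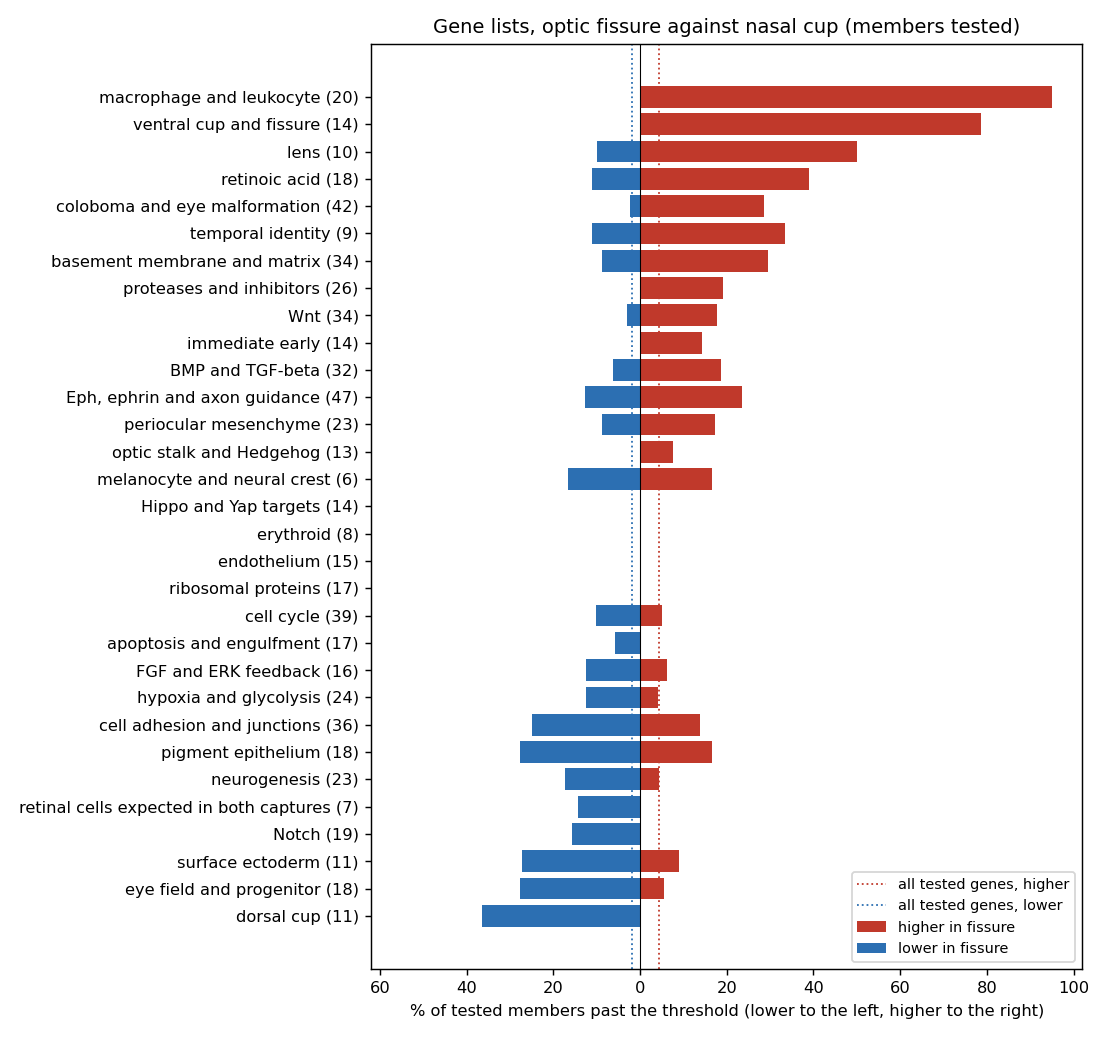
Share of the tested members of each list (number tested in brackets) that passed an adjusted p below 0.05, with genes higher in the fissure to the right and lower to the left, for lists with at least 6 tested members. Dotted lines mark the same shares over all 12770 tested genes, 4.41% and 1.97%. Macrophage and leukocyte genes (19 of 20) and ventral genes (11 of 14) have the largest shares of rises, and dorsal genes (4 of 11) the largest share of falls.

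Some of the named genes, not all of them among the largest changes, were compared side by side with the temporal cup. That comparison uses the same fissure arrays. Cldn1 changed by -3.57 against the nasal and by -2.58 against the temporal cup, where it read 214, 165 and 216, between the other regions. Pcdh17 read 272, 286 and 215 in the temporal cup and changed by -3.09 there against -2.34 here. Bmp2 (-1.06 against the nasal cup) did not pass against the temporal cup (-0.53, adjusted p = 0.148), and Gap43 (-1.11) did not either (-0.35, adjusted p = 0.397). Whether the nasal and temporal levels of Bmp2 and Gap43 differ was tested directly and did not pass (adjusted p = 0.99985 and 0.739).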

How the data were processed

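RNA of laser-microdissected regions was measured on 9 arrays, of which 6 enter the comparison. Per the file headers the table holds the authors' probe set values, and the deposited values are intensity on a linear scale. The sources used here do not give how probes were summarised and scaled. On every array the mean after trimming 2% from each end was about 150, so the arrays had been scaled, and no further scaling was applied. Precision is limited by how many arrays there are.

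Of 45101 probe sets, 64 were controls, 34945 had 1 gene symbol in the platform annotation, 932 several and 9160 none. Of the symbols, 0 were updated through RefSeq gene IDs (GRCm38.p6). A gene was represented by its brightest probe set over the 9 arrays, which gave 18193 genes. Genes over the 40th percentile of their array on 3 or more arrays, 12770 in all, were tested. Values were taken as log2(intensity + 16), which understates changes of dim genes. The 9 arrays were fitted together by region with limma 3.58.1 under R 4.3.3, and adjusted p-values are Benjamini-Hochberg over all tested genes. Changes carry their standard error (SE). Figures were drawn with matplotlib 3.10.9. The fit was tested on simulated data.

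The letters were tried as a pairing. Across genes, the deviations of arrays from their region's mean correlated at 0.166, 0.369 and 0.340 between fissure and nasal arrays of the same letter, against -0.380 to 0.184 between different letters. Each lay above 0.1, though the letter A value was below the highest different-letter value of 0.184. A fit with the letters as pairs was therefore run as well, on the data and not on the labels. Counts, changes and p-values are from the fit without the block unless the block is named.

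The comparison, the 33 gene lists (680 genes, 558 tested) and the alternatives were chosen with earlier results of these data known. Genes were named by rule: the 15 largest changes each way among genes that passed and whose regions did not overlap, up to 6 list members each, by smallest p, and 23 regional identity genes, of which 19 were tested. Genes named outside it are said to have been chosen after their values were seen. Alternatives covered the filter, pseudocount, scaling, choice of probe set, variance model, block, arrays in the fit, each array left out and the covariates named.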

Additional observations from a re-analysis of the deposited data

How the results depend on the processing

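Of the 114 named genes that differed, 73 passed under every alternative run, 41 lost the call under at least 1 and 0 reversed. Counts of genes that differed were within 1.5 times of 814 except as follows. Array weights gave 2675 (1794 higher, 881 lower), and the replicate block, which takes letters as pairs, gave 1592 (1057 higher, 535 lower). The poly-A control covariate gave 414 (278 higher, 136 lower), and with it 28 of the named genes lost their call. Adamts15 (adjusted p = 0.0687 in limma), Col5a2 (0.0505), Cdkn1c (0.0509), Postn (0.0619) and Niban1 (0.0596) lost it under this alternative alone. The count of lower genes was 164 with the most variable probe set. Genes past a 2-fold change, 430, numbered 188 with a pseudocount of 64, 269 with the mean of all probe sets and 646 over single probe sets. Leaving out 1 array gave 420 to 1245 genes, 289 to 899 higher and 131 to 346 lower. Without the 3 B arrays 1115 genes passed. The block added 20 calls among 74 named genes that had not passed and changed no other call among named genes.

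Uncalled genes whose sign turned were Aldh1a1 (0.04 without fissure array A, and -0.39 to 0.31 over the arrays left out), Bmp4 (0.12 with array weights, and -0.56 to 0.17 over the arrays left out), Ccn1 (-0.087 with the mean of probe sets, -0.11 with the most variable), Foxd2 (0.039) and Sox10 (-0.14), both with the mean of probe sets, and Rpl37 (-0.087 with the poly-A covariate). Pax3 gave 0.14 with a pseudocount of 1, 0.36 with array weights, -0.66 to 0.18 over the arrays left out and 0.40 without the B arrays. Tfap2a gave -0.051 with median centring, -0.096 with array weights, -0.24 to 0.33 over the arrays left out and -0.29 without the B arrays. The causes were not tested. With 3 arrays a region, signal near the 40th percentile gives imprecise folds, and the depth of a microarray is set by signal over background.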

Other observations

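Of the 814 genes that differed between optic fissure and nasal cup, 149 are in the gene lists and 665 are in none. The genes described here were chosen after their values were seen, and their changes are from limma over all tested genes. Crx, a homeobox gene of photoreceptor precursors, read 162, 121 and 118 in fissure arrays A, B and C and 19.3, 13.8 and 22 in the nasal arrays (2.12, SE 0.19, adjusted p = 8.52e-05). Abca4, a retinoid transporter gene, read 587, 358 and 622 against 127, 121 and 213 (1.67, SE 0.27, adjusted p = 0.00333). Rrh, which encodes the retinaldehyde-binding opsin peropsin, read 203, 128 and 156 against 39.5, 45.6 and 45.9 (1.56, SE 0.21, adjusted p = 0.00112), and Cplx3, a complexin gene of ribbon synapses, read 312, 226 and 333 against 33.1, 33.9 and 34.9 (2.60, SE 0.24, adjusted p = 9.82e-05). In each of these the 3 fissure values lay above all nasal values.

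Vax2os, a noncoding transcript next to Vax2, read 367, 327 and 345 against 37.6, 142 and 35.9 (2.25, SE 0.37, adjusted p = 0.00382), with nasal array B well above the other nasal arrays. Plk2, a polo-like kinase gene, read 485, 377 and 619 against 117, 75 and 114 (2.11, SE 0.21, adjusted p = 0.000146). Apoe, a lipoprotein gene of glia and macrophages, read 2120.5, 2238 and 1882 against 533, 798 and 529.7 (1.74, SE 0.24, adjusted p = 0.00130) and the iron exporter gene Slc40a1 144, 101 and 103 against 22.8, 35.3 and 19.7 (1.66, SE 0.21, adjusted p = 0.000682), in captures whose leukocyte markers were also higher, and the part of those cells was not tested. Among genes that fell, Met, the receptor of hepatocyte growth factor, read 56.1, 55.5 and 47.9 against 189, 191 and 182 (-1.56, SE 0.14, adjusted p = 9.82e-05). Dab1, the intracellular adaptor of reelin signalling, read 73, 47.2 and 91.2 against 228, 191 and 214 (-1.42, SE 0.20, adjusted p = 0.00134), so it was lower in the captures in which Reln was lower. Ltbp1, a latent TGF-beta binding protein gene, and Lgr5, a receptor of R-spondins, fell by 1.81 and 1.09.

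Probe sets taken singly gave 996 calls among 28899 tested, 685 higher and 311 lower, and 141 of them carry no gene name in the annotation. Of the 814 genes, 365 had another tested probe set, 602 in all. Of those, 562 changed in the same direction as the one used, 172 of them past the threshold, and 40 in the opposite direction, 0 of them past it.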
